A study of Mus musculus with 2 samples.

Results

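Chemokines and their receptors were examined on arrays of gastrocnemius muscle from mutants that lose the transcriptional coactivator PGC-1β in myofibres at adulthood, named PGC-1β(i)skm-/-, and from control mice. The group holds the genes whose symbol in the array annotation is Ccl, Cxcl, Cx3cl, Ccr or Cxcr followed by a number and at most 1 letter, leaving out Cxcl9 and Cxcl10. It has 46 genes, 31 ligands and 15 receptors, of 19936 named nuclear genes on the arrays.

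There was 1 array for PGC-1β(i)skm-/- and 1 for control muscle, each hybridized with RNA pooled from 3 male mice on a C57BL/6 background, 8 weeks old. The mutants carried HSA-Cre-ERT2, a tamoxifen-dependent recombinase driven by human skeletal actin elements in myofibres, and floxed PGC-1β L2 alleles. The controls carried the floxed alleles without the transgene, although the sample labels call them wild-type, and mice of both genotypes were given tamoxifen from the age of 7 weeks, 1 mg on each of 5 days, and were analysed 1 week after the last dose. Effects of the transgene and of the deletion cannot be told apart, and other cell types of the muscle keep PGC-1β in this model. With a single array per genotype no difference has an error from mice, no test was made, and a value compares these 2 pools only.

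Chemokines are small secreted proteins that guide migrating leukocytes along gradients bound to the glycosaminoglycans of vessel walls and matrix. They are named by the spacing of their first cysteines (CC, CXC, CX3C) and act on receptors of the G-protein-coupled family that inhibit adenylate cyclase through Gi. In muscle most receptors are carried by resident or invading leukocytes, whereas fibroblasts, endothelium, macrophages and injured fibres are sources of ligands. Homeostatic chemokines such as CXCL12 are made without inflammation, and inflammatory ones such as CCL2 and CXCL1 are induced on injury.

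Values are log2 signals computed by the authors with RMA, which removes background, gives both arrays one distribution of signals and combines the probes of a probe set. The median over 35556 probe sets was 6.02 on the PGC-1β(i)skm-/- array and 6.00 on the control array. Ppargc1b, the targeted gene, had log2 signals of 7.06 in PGC-1β(i)skm-/- and 7.87 in control muscle. The 12 myofibre markers, among them Acta1 and Ckm, lay between 12.71 and 13.91 in PGC-1β(i)skm-/- and between 12.81 and 13.88 in control muscle, with a median log2 difference of 0.02. Probes differ in affinity, so that a brighter probe set is not evidence of a more abundant transcript.

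Most chemokine genes were dim on these arrays. RMA gives no detection call, and 1015 olfactory receptor genes, a family not expected in muscle, were therefore used as a yardstick: the 95th percentile of their mean log2 signals was 5.46, called the dim bound below. Of the 46 chemokine genes, 19 (41.3%) had a mean signal above this bound, against 67.6% of all named genes. These were 16 of 31 ligands and 3 of 15 receptors. The median signal of the 46 genes was 5.19 in PGC-1β(i)skm-/- and 5.21 in control muscle. For 27 genes the arrays therefore gave no signal that could be told from that of olfactory receptor probe sets, which does not show that the transcripts were absent.

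**Figure D1:**
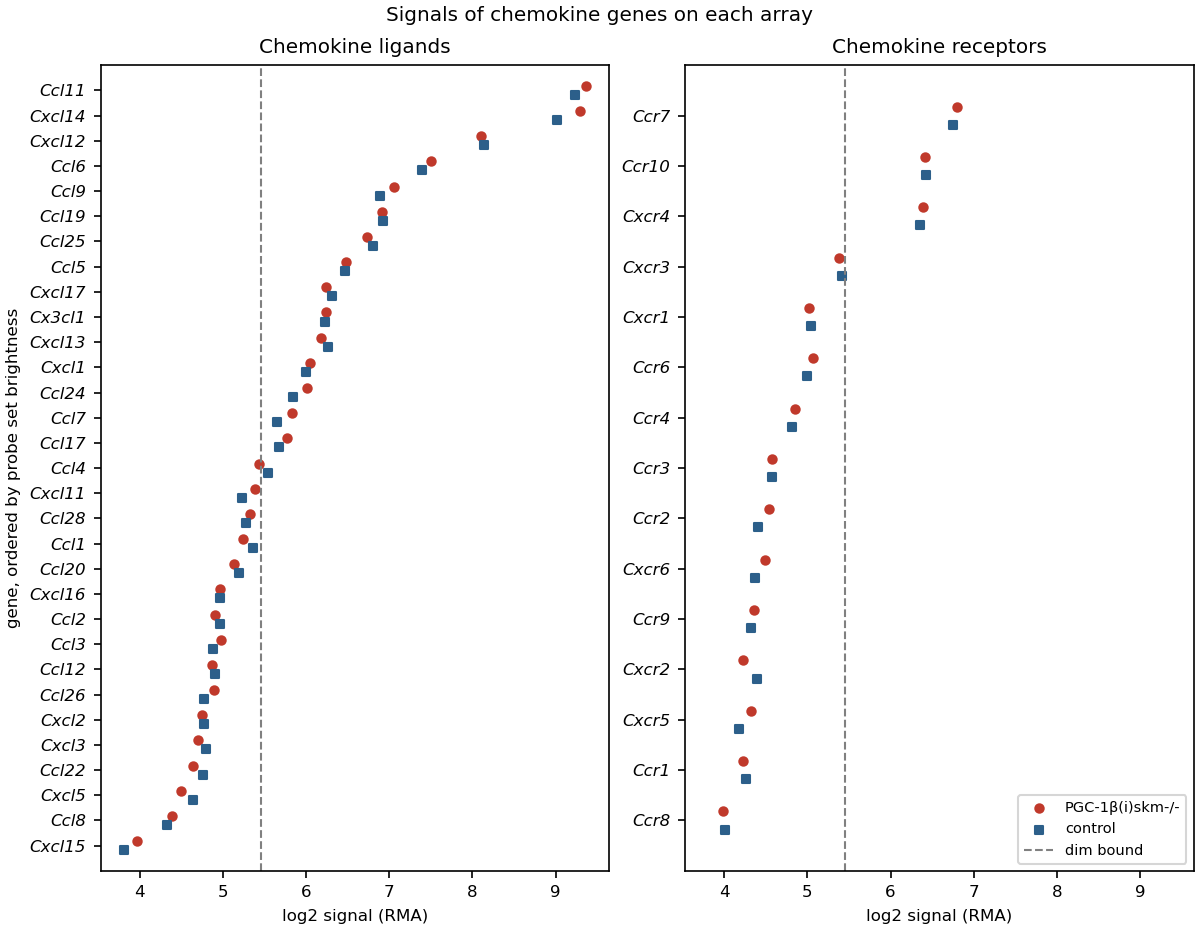
Log2 signals (horizontal axis) of 31 chemokine ligands (left) and 15 receptors (right), ordered by brightness of the probe set, in PGC-1β(i)skm-/- (red circles) and control muscle (blue squares), 1 array each. The dashed line is the dim bound of 5.46, which 16 ligands and 3 receptors exceed, and the circle and square of each gene lie close together.

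The brightest ligands were Ccl11, Cxcl14, Cxcl12, Ccl6 and Ccl9. CCL11, or eotaxin, attracts eosinophils, CXCL12 retains and recruits CXCR4-bearing stem cells and leukocytes, and CCL6 and CCL9 are rodent ligands made by myeloid cells. The bright receptors were Ccr7, which guides dendritic cells and naive T cells to lymph nodes, Ccr10, of skin-homing lymphocytes, and Cxcr4. The order is one of probe set brightness and holds for these arrays only.

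The signals of the 46 genes were nearly the same in both genotypes. No member had a ratio of PGC-1β(i)skm-/- to control signal of 0.8 or less, the lower threshold in the methods of the study, against 0.652% of all named genes, and 1 member (2.17%) had a ratio of 1.2 or more, against 1.64% of all named genes. The shares lie near those of all genes, and with 46 genes they do not set the chemokines apart. Log2 differences, taken as PGC-1β(i)skm-/- minus control throughout, ranged between −0.16 and 0.28 with a median of 0.02, beside a median of −0.00055 over all named genes. They were above 0 for 26 of the genes (56.5%), against 49.6% of all named genes, and below 0 for 20. Of the 46 differences, 29 (63.0%) were under 0.1 in size, against 66.0% of all genes. The standard deviation of the differences was 0.10 over the 46 genes, 0.11 over the olfactory receptor genes and 0.12 over all genes. The spread of the chemokine genes was thus no wider than that of probe sets taken as dim.

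**Figure D2:**
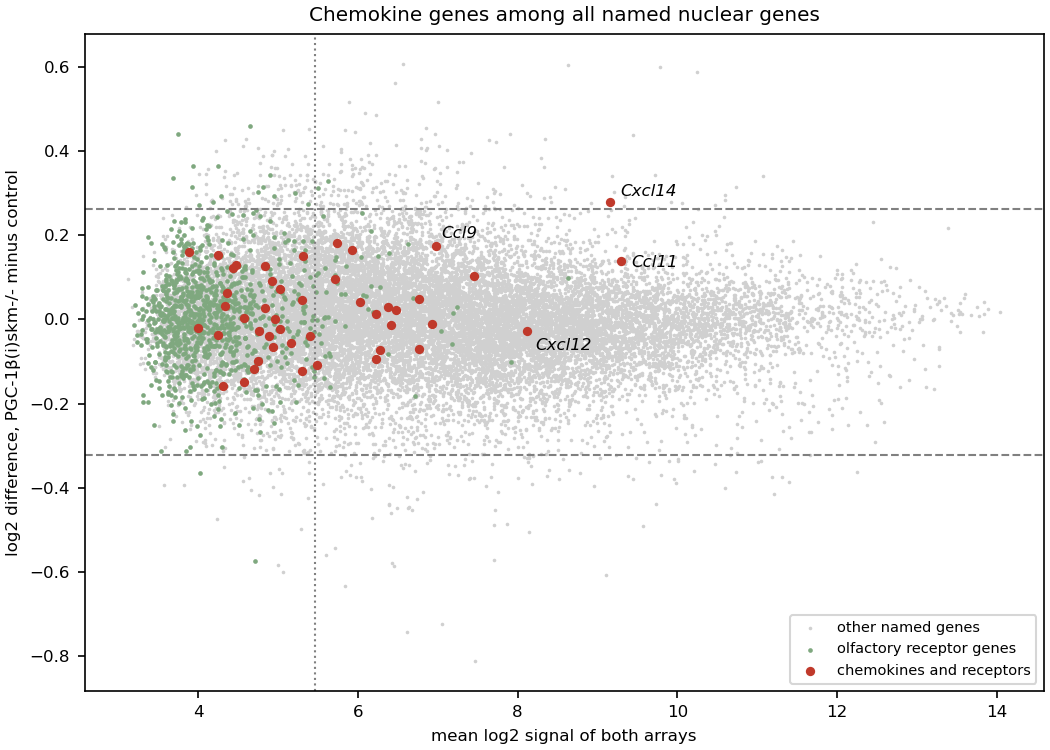
Differences between genotypes (vertical axis, log2 signal in PGC-1β(i)skm-/- less that in control muscle) against mean log2 signal of the 2 arrays (horizontal axis) for 19936 genes, 1 point per gene, with the 46 chemokine genes in red and 1015 olfactory receptor genes in green. Dashed lines are ratios of 0.8 and 1.2 and the dotted line is the dim bound of 5.46; of the red points Cxcl14 alone lies beyond a dashed line.

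Cxcl14, a ligand of epithelia and fibroblasts with no agreed receptor, was the gene past the threshold. Its log2 signal was 9.29 in PGC-1β(i)skm-/- and 9.01 in control muscle, a log2 difference of 0.28 and a ratio of 1.21. This is just inside the threshold of 1.2, and the next largest ratio, of Ccl7, was 1.13. Cxcl17, a mucosal ligand placed beside it for lack of an assigned receptor, had log2 signals of 6.24 in PGC-1β(i)skm-/- and 6.31 in control muscle, with a log2 difference of −0.07.

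The eotaxins Ccl11, Ccl24 and Ccl26, ligands of CCR3, had higher signals in PGC-1β(i)skm-/- muscle, each by under 1.2-fold. For scale, the standard deviation of log2 differences over all named genes was 0.12. Ccl11 had log2 signals of 9.37 in PGC-1β(i)skm-/- and 9.23 in control muscle, a log2 difference of 0.14. Ccl24, or eotaxin-2, had 6.01 in PGC-1β(i)skm-/- and 5.84 in control muscle (ratio 1.12). Ccl26, the third eotaxin, at 4.90 in PGC-1β(i)skm-/- and 4.77 in control muscle (ratio 1.09), was dim. Ccr3, the receptor on eosinophils, was dim in both genotypes, at 4.58 in PGC-1β(i)skm-/- and 4.58 in control muscle. Of 4 eosinophil markers 3 were at or below the dim bound, Epx, Prg2 and Il5ra, and the list had a median log2 difference of −0.04.

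Markers of fibroblasts and tendon, cells known to make CXCL14 and CCL11, also had higher signals in PGC-1β(i)skm-/- muscle. Of the 14, 5 had a ratio of 1.2 or more, Comp, Fmod, Tnmd, Mfap5 and Thbs4, against 1.64% of all named genes. All 14 were above 0, against 49.6% of all named genes, with a median log2 difference of 0.21. Their summed linear signal was 16433 in PGC-1β(i)skm-/- and 14346 in control muscle, and Pdgfra, a defining fibroblast marker, had log2 signals of 8.64 in PGC-1β(i)skm-/- and 8.59 in control muscle. The list was chosen with earlier results of these data known, so its counts describe it only. The part of these markers in the signals of Cxcl14 and Ccl11 was not tested. In whole muscle, more cells of a type and more RNA per cell cannot be told apart.

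Ligands of CCR1 differed among themselves. Ccl9 had log2 signals of 7.06 in PGC-1β(i)skm-/- and 6.88 in control muscle (ratio 1.13), and Ccl6 had a log2 difference of 0.10 (ratio 1.07). Both were above 0 and short of the threshold. Ccl5, or RANTES, made by T cells and platelets, had 6.48 in PGC-1β(i)skm-/- and 6.46 in control muscle. Ccl4 had 5.43 in PGC-1β(i)skm-/- and 5.54 in control muscle, and was the single gene above the dim bound on 1 array and below it on the other. Ccl3, a macrophage inflammatory protein like CCL4, was dim, with 4.97 in PGC-1β(i)skm-/- and 4.88 in control muscle. Ccr1 was dim as well, with 4.22 in PGC-1β(i)skm-/- and 4.26 in control muscle.

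The monocyte axis of CCR2 was mostly dim. Ccl2, the main attractant of inflammatory monocytes, had log2 signals of 4.90 in PGC-1β(i)skm-/- and 4.96 in control muscle. Ccl7, a second CCR2 ligand, had 5.83 in PGC-1β(i)skm-/- and 5.65 in control muscle, the largest ratio after that of Cxcl14. Ccl12, the remaining mouse ligand of this receptor, had 4.86 in PGC-1β(i)skm-/- and 4.90 in control muscle, and Ccr2 itself 4.53 in PGC-1β(i)skm-/- and 4.40 in control muscle. Thus 1 of these 4 genes was above the dim bound, and none differed by 1.2-fold.

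Macrophage and monocyte markers, of the cells that make CCL6 and CCL9, had higher signals in PGC-1β(i)skm-/- muscle. Of 13 measured, 12 were above 0, against 49.6% of all named genes, with a median log2 difference of 0.21. Of the 13, 5 had a ratio of 1.2 or more, C1qa, C1qb, Mrc1, C1qc and Csf1r, against 1.64% of all named genes. C1qc and Csf1r were only just past this threshold. Cd68 had a ratio of 1.045, and Fcgr1, the marker below 0, a ratio of 0.959. All 13 were above the dim bound, and their summed linear signal was 2070 in PGC-1β(i)skm-/- and 1751 in control muscle. Adgre1, a macrophage surface antigen, had log2 signals of 5.89 in PGC-1β(i)skm-/- and 5.74 in control muscle (ratio 1.11). This list, too, was chosen with earlier results of these data known, and its counts describe it only. The part of these markers in the signals of Ccl6, Ccl7 and Ccl9 was not tested.

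**Figure D3:**
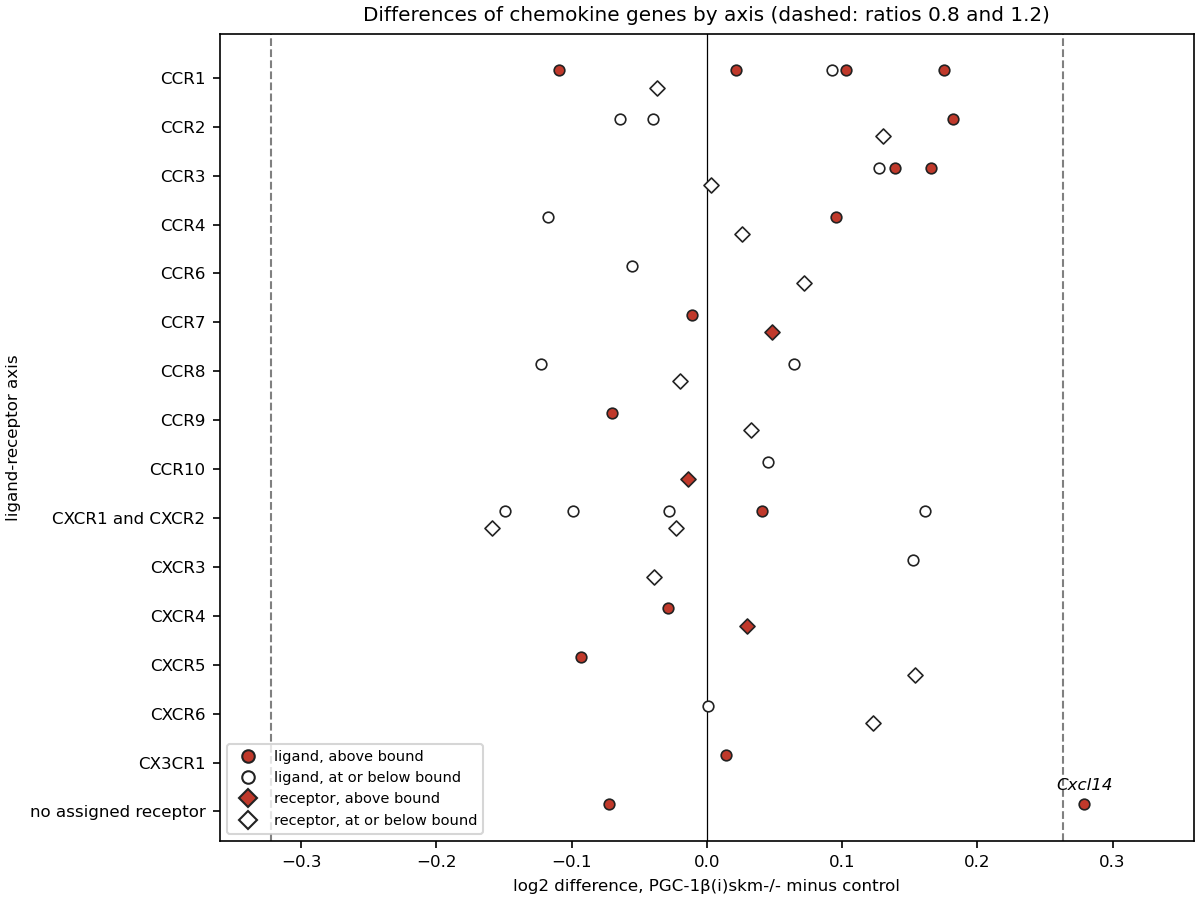
Log2 signal in PGC-1β(i)skm-/- less that in control muscle (horizontal axis) is drawn for each ligand (circle) or receptor (diamond), by ligand-receptor axis (vertical axis), filled if the mean signal was above the dim bound of 5.46 and open if not. Dashed lines are ratios of 0.8 and 1.2, and all symbols but that of Cxcl14 lie between them.

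The neutrophil axis was dim apart from Cxcl1. Cxcl1, which draws neutrophils through CXCR2, had log2 signals of 6.04 in PGC-1β(i)skm-/- and 6.00 in control muscle. Its neighbours Cxcl2 and Cxcl3, of like function, were dim, with log2 differences of −0.03 and −0.10. Cxcl5, also a CXCR2 ligand, had 4.49 in PGC-1β(i)skm-/- and 4.64 in control muscle (ratio 0.902). Cxcr2 had the lowest ratio of all 46 genes, 0.896, at the dim signals of 4.23 in PGC-1β(i)skm-/- and 4.39 in control muscle. Both were at levels where olfactory receptor genes lie. Cxcr1 had 5.02 in PGC-1β(i)skm-/- and 5.04 in control muscle, and Cxcl15, or lungkine, a ligand of lung epithelium, was the dimmest of all, with 3.97 in PGC-1β(i)skm-/- and 3.81 in control muscle. All 9 neutrophil markers, such as S100a8 and Ly6g, were at or below the dim bound, with a median log2 difference of −0.07. Signals at this level give no measure of neutrophils.

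Promoters of Cxcl1, Cxcl2 and Cxcl3, neighbouring genes that share a receptor, are shown beside that of Cxcl14, the gene past the threshold, since NF-κB is the known inducer of inflammatory chemokines. The windows are RefSeq sequences of GRCm38.p6, 250 bases before to 50 after the start of the gene, at chr13:56296502-56296801 on the minus strand, and chr5:90890995-90891294, chr5:90903649-90903948 and chr5:90785851-90786150 on the plus strand. Each is written 5′ to 3′ along the gene, and capitals mark GGANTTTCC, a κB-like string, and the core promoter string TATAAA.
Cxcl14: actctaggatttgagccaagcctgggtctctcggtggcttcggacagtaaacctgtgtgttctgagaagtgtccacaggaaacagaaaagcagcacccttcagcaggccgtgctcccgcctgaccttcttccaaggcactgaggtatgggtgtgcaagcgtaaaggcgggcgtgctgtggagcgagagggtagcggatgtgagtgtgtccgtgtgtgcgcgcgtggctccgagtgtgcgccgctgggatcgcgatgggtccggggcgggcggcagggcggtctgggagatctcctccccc
Cxcl1: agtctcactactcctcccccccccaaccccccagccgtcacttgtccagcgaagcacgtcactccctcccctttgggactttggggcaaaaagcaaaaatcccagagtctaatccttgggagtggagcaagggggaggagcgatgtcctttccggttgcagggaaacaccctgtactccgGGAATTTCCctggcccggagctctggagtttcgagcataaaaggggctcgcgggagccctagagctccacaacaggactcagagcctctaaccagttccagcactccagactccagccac
Cxcl2: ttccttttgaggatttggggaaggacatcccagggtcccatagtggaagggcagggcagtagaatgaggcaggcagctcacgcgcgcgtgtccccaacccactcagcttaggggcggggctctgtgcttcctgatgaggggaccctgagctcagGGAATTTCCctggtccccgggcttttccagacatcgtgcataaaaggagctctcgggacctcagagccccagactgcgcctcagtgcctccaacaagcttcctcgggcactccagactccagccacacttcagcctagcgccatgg
Cxcl3: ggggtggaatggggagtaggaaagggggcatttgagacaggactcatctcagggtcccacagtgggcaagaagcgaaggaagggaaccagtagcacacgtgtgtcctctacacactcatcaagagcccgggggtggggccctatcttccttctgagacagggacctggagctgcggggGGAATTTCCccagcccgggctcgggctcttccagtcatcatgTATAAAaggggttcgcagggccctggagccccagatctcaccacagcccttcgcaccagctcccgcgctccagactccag

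The κB-like string began at base 181 of the window of Cxcl1, 155 of Cxcl2 and 179 of Cxcl3, counted from its 5′ end, and the window of Cxcl3 also held TATAAA at base 221. The window of Cxcl14 held none of the strings searched. Windows were listed for 32 of the 46 genes, 34 in all since Ccl25 and Ccr6 had 2 each. On either strand, GGANTTTCC was in 4 of these 34 windows, those of Cxcl1, Cxcl2, Cxcl3 and Ccr3, and in 1.25% of 32851 windows of all genes. TATAAA was in 9 windows of the chemokine genes (26.5%) and in 13.6% of all. TNAAGGTCA, the element of the estrogen-related receptors that PGC-1β coactivates, was in 1 window, of Ccl20, and in 1.28% of all. No motif contains another. A match describes the sequence and is not evidence of a bound factor. The genes with the κB-like string had log2 differences of 0.04 (Cxcl1), −0.03 (Cxcl2), −0.10 (Cxcl3) and 0.0032 (Ccr3).

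The axis of CXCR4 had signals above the bound for ligand and receptor. Cxcl12 had log2 signals of 8.11 in PGC-1β(i)skm-/- and 8.13 in control muscle, with a ratio of 0.980. Cxcr4, its receptor, had 6.39 in PGC-1β(i)skm-/- and 6.36 in control muscle, with a ratio of 1.02. The differences of Cxcl12 and Cxcr4 were thus under 0.1 in size on the log2 scale. Ackr3, an atypical receptor that scavenges CXCL12 and is outside the symbol rule, had a log2 difference of 0.23 (ratio 1.17). Cx3cl1, or fractalkine, a membrane-bound ligand of endothelium and neurons, had 6.24 in PGC-1β(i)skm-/- and 6.22 in control muscle.

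The lymphoid axis of CCR7 likewise had differences under 0.1. Ccr7 had log2 signals of 6.79 in PGC-1β(i)skm-/- and 6.75 in control muscle. Ccl19, its ligand from lymphoid stroma, had 6.92 in PGC-1β(i)skm-/- and 6.93 in control muscle by its brightest probe set. The 5 probe sets listed for Ccl19 had differences between −0.04 and 0.00013, and since the gene has close copies in the mouse genome they may measure the same transcripts. Cxcl13, the B cell attractant, had 6.17 in PGC-1β(i)skm-/- and 6.27 in control muscle, and its receptor Cxcr5 was dim, with 4.32 in PGC-1β(i)skm-/- and 4.17 in control muscle (ratio 1.11). Of 12 T and NK cell markers 9 were at or below the dim bound, and of 6 B cell markers 2 were. All 6 B cell markers were above 0, with a median log2 difference of 0.07. Of the T and NK cell markers 5 were above 0, with a median of −0.0087, against 49.6% of all named genes.

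CCL21, the other CCR7 ligand, and CCL27, a CCR10 ligand of skin, are encoded by near-identical gene copies, and the annotation gives them only on 7 probe sets that list several genes, which were left out of the 46. The 4 probe sets of the Ccl21 copies had the same values, log2 signals of 8.61 in PGC-1β(i)skm-/- and 8.67 in control muscle. The 3 probe sets of the Ccl27 copies had log2 differences of −0.18, −0.18 and −0.17, the brightest with 9.14 in PGC-1β(i)skm-/- and 9.31 in control muscle (ratio 0.890). These values cannot be assigned to 1 gene. The remaining CCR10 genes were Ccr10, with 6.41 in PGC-1β(i)skm-/- and 6.43 in control muscle, and the mucosal ligand Ccl28, which was dim, with 5.33 in PGC-1β(i)skm-/- and 5.28 in control muscle.

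T cell axes were dim in part. Cxcl11, an interferon-inducible ligand of CXCR3, had log2 signals of 5.38 in PGC-1β(i)skm-/- and 5.23 in control muscle (ratio 1.11). Cxcr3, the receptor of activated T cells, had 5.38 in PGC-1β(i)skm-/- and 5.42 in control muscle. The ligands of the same receptor that are not counted here had a log2 difference of −0.72 (Cxcl9, 6.69 in PGC-1β(i)skm-/- and 7.41 in control muscle) and of 0.07 (Cxcl10, 5.03 in PGC-1β(i)skm-/- and 4.96 in control muscle). Cxcl10, Cxcl11 and Cxcr3 were dim on both arrays, so their signs are not compared with that of Cxcl9. Ccl17, a CCR4 ligand of dendritic cells, had 5.76 in PGC-1β(i)skm-/- and 5.67 in control muscle. Ccl22, which shares the receptor, was dim, with 4.64 in PGC-1β(i)skm-/- and 4.76 in control muscle, as was Ccr4, with 4.85 in PGC-1β(i)skm-/- and 4.82 in control muscle.

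The other axes held few genes above the bound. Ccl25, the thymic and gut ligand of CCR9, had log2 signals of 6.73 in PGC-1β(i)skm-/- and 6.80 in control muscle by its brighter probe set and 6.49 in PGC-1β(i)skm-/- and 6.64 in control muscle by the other. Ccr9 was dim, with 4.36 in PGC-1β(i)skm-/- and 4.32 in control muscle. Dim on both arrays were likewise Ccl20 and Ccr6, of mucosal T cells, with log2 differences of −0.05 and 0.07. Ccl1, Ccl8 and Ccr8, of skin and type 2 helper T cells, had log2 differences of −0.12, 0.06 and −0.02. Cxcl16, a membrane-bound ligand, and its receptor Cxcr6 had log2 differences of 0.00056 and 0.12. In the CXCR6 axis Cxcr6 was above 0, and the difference of Cxcl16 was too near 0 for its sign to be read. The signs were mixed in the axes of CCR6, CCR8 and CCR9.

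Over all axes, ligands had a median log2 difference of 0.01 and receptors of 0.03, with 17 of 31 ligands and 9 of 15 receptors above 0. Above the dim bound the medians were 0.03 for 16 ligands and 0.03 for 3 receptors, and at or below it −0.03 for 15 ligands and 0.01 for 12 receptors. By class, 11 of 19 Ccl, 5 of 11 Cxcl, 6 of 9 Ccr and 3 of 6 Cxcr genes were above 0. Of all named genes 49.6% were above 0. Without Cxcl14 the ratios of the other 45 genes lay between 0.896 and 1.13.

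Longer runs of neighbouring genes held differences of both signs. Pairs of neighbours shared a sign, but all genes of the pairs except Ccl24 were dim, and no pattern is read from them. By the order of protein-coding genes in the RefSeq annotation, used here for neighbourhood only, Ccl2, Ccl7, Ccl11, Ccl12, Ccl8 and Ccl1 follow each other on chromosome 11, and 3 of these 6 genes were above 0. Of the 6, Ccl7 and Ccl11 were above the dim bound. Ccl5, Ccl9, Ccl6, Ccl3 and Ccl4 form a further run on the same chromosome, with 4 of 5 above 0 and 4 above the dim bound. The 4 neighbours Cxcl3, Cxcl15, Cxcl1 and Cxcl2 on chromosome 5 had 2 above 0, and of Ccl22, Cx3cl1 and Ccl17 on chromosome 8, Cx3cl1 and Ccl17 were above 0. Both genes were above 0 in the pairs Ccl26 and Ccl24 on chromosome 5 and Ccr3 and Ccr2 on chromosome 9. The difference of Ccr3, 0.0032, was too near 0 for its sign to be read. Both genes were below 0 in the pair Cxcr2 and Cxcr1 on chromosome 1. All 8 receptor genes on chromosome 9 that were examined were at or below the dim bound.

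Chemokine genes that the symbol rule does not take, and the signalling genes below the receptors, gave like values. Of 10 such chemokine genes none had a ratio past a threshold, and the median log2 difference was 0.03. Ackr3, an atypical receptor that scavenges CXCL12, had log2 signals of 6.48 in PGC-1β(i)skm-/- and 6.24 in control muscle (ratio 1.17). Ackr2, which scavenges inflammatory CC chemokines, had 6.37 in PGC-1β(i)skm-/- and 6.59 in control muscle (ratio 0.859). Ackr3 and Ackr2 thus had the largest differences of this list, in opposite directions. The atypical receptors Ackr1 and Ackr4 had log2 differences of 0.03 and −0.0023. Cx3cr1, the fractalkine receptor, had 6.11 in PGC-1β(i)skm-/- and 6.07 in control muscle, and Pf4, a platelet chemokine, 6.83 in PGC-1β(i)skm-/- and 6.70 in control muscle. Of 26 genes of receptor signalling, such as Gnai2, a Gi subunit, and Arrb2, an arrestin, 13 were above 0, against 49.6% of all named genes. None had a ratio past a threshold, and the median was −0.00099.

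**Figure D4:**
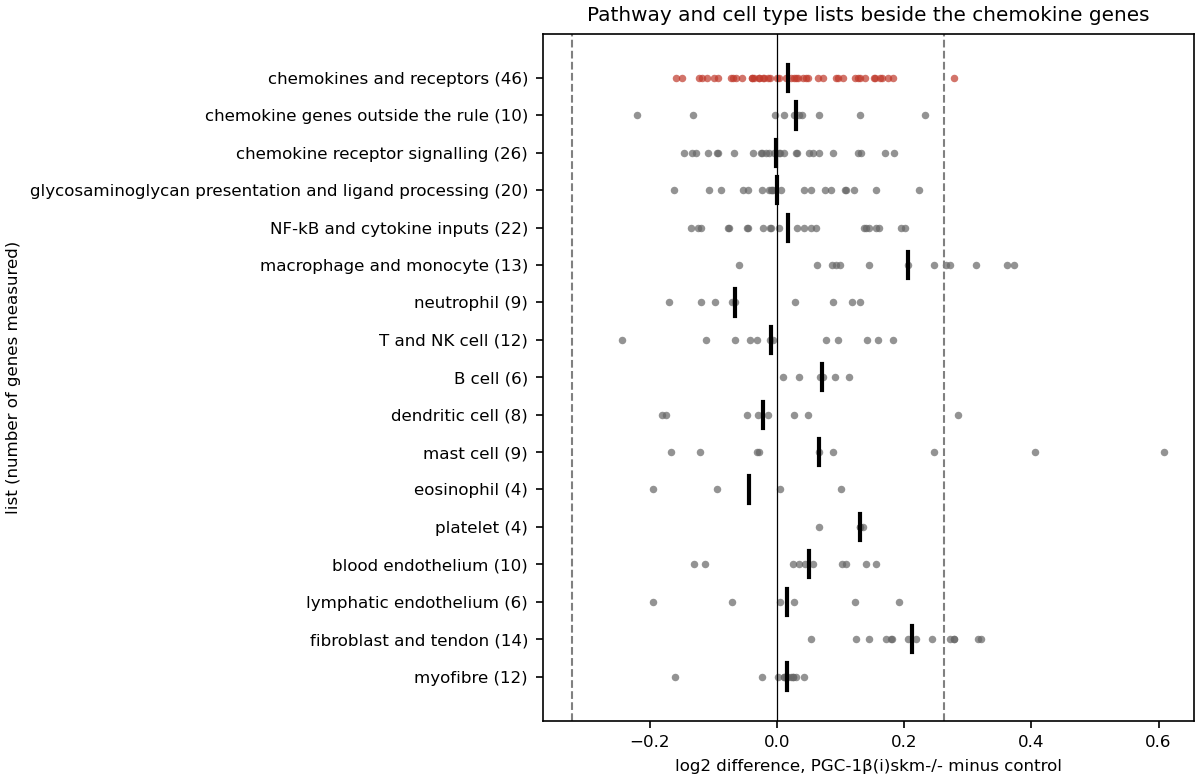
Log2 signal in PGC-1β(i)skm-/- less that in control muscle (horizontal axis) is drawn as 1 point per gene for the lists named on the vertical axis, with the number of genes measured and black bars at list medians. The median is 0.02 for the 46 chemokine genes in red, 0.21 for macrophage and monocyte markers and 0.21 for fibroblast and tendon markers, and dashed lines mark ratios of 0.8 and 1.2.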

How the data were processed

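The deposited log2 signals were made by the authors with RMA in Expression Console 1.1, from scans of Affymetrix Mouse Gene 1.0 ST arrays read by GeneChip Command Console 3.2, after labelling of 150 ng of RNA. Quantile normalization would hide a change of all genes together, and RMA compresses differences of dim probe sets. No source used here gives the genome build of the probe sets.

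Of 35556 probe sets, 21789 had 1 symbol in the platform annotation, 1621 with several were not used, and 12146 had no entry there. Each of 19936 nuclear genes was given by its brightest probe set, on the mean of both arrays. The symbols of all 46 chemokine genes equalled the RefSeq symbols of their Entrez IDs. The thresholds for a lower and a higher signal were ratios of 0.8 and 1.2, taken from the study's methods. All genes above the dim bound on either array, past a threshold or encoding receptors, and ligands of receptors above the bound, were named. No adjustment, filter or test was applied, because there was 1 array per genotype. The number of arrays limits the precision. Genes, lists and axes were chosen with earlier results of these data known.

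Alternatives were other ways to combine probe sets, probe sets of several genes, filters on signal, subtraction of a loess curve (span 0.3) or of the median difference, and other thresholds. Calculations, tested on simulated data, used Python 3.11.15, pandas 2.3.3, numpy 2.4.6, statsmodels 0.14.6 and matplotlib 3.10.9.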

Additional observations from a re-analysis of the deposited data

How the results depend on the processing

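The number of chemokine genes with a ratio of 1.2 or more was 1 under each way of combining probe sets, filter and centring tried, and 0 with 1.5 as the threshold. The number with a ratio of 0.8 or less was 0 in all settings, including 1/1.2 and 1/1.5. With the 99th percentile of olfactory receptor genes (6.36) as the dim bound, 11 genes lay above it in place of 19. The median log2 difference lay between 0.0016, with a loess curve subtracted, and 0.03, above the dim bound. The ratio of Cxcl14 was 1.23 with the loess curve subtracted. This subtraction changed the sign of 3 of the 46 differences, those of Cxcl16, Ccr3 and Cx3cl1, and moved none by more than 0.02. With the mean of probe sets, no difference moved by more than 0.04. Changes in medians were read against the standard deviation of differences over olfactory receptor genes, 0.11, for lack of replicates. That is a spread of single genes and exceeds the median of the 46 genes itself, 0.02. It therefore cannot tell whether this median was stable. With 1 array per genotype no paired or leave-one-out analysis could be made.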

Other observations

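Genes that induce chemokines, and genes that handle them outside the cell, had list medians near 0 with members on both sides. Of 22 genes of NF-κB and cytokine signalling, 12 were above 0, against 49.6% of all named genes, with a median log2 difference of 0.02. None had a ratio past 0.8 or 1.2, against 0.652% and 1.64% of all named genes. Il4ra and Stat6, the receptor chain and transcription factor through which interleukins induce eotaxins, had log2 differences of 0.20 and 0.20. These were the largest of the list, whose other genes lay between −0.14 (Tnf) and 0.16 (Tnfrsf1a). The part of Il4ra and Stat6 in the signals of Ccl11 and Ccl24 was not tested. Stat6 had log2 signals of 8.35 in PGC-1β(i)skm-/- and 8.15 in control muscle. Tnf, Il1b and Il6, inflammatory cytokines, were at or below the dim bound on average.

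Of 20 genes of glycosaminoglycan synthesis and of ligand processing, 10 were above 0, against 49.6% of all named genes. Their median log2 difference was 0.00045. None had a ratio past 0.8 or 1.2, against 0.652% and 1.64% of all named genes. Mmp9, a matrix protease that trims chemokines, had log2 signals of 5.92 in PGC-1β(i)skm-/- and 5.70 in control muscle, and Adam10, which sheds CX3CL1 and CXCL16, had a log2 difference of −0.16.

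Of 9 mast cell markers 5 were above 0 and 4 below, with a median log2 difference of 0.07. In this list, also chosen with earlier results of these data known, 2 had a ratio of 1.2 or more. These were Cpa3 (1.53) and Mcpt4 (1.33), against 1.64% of all named genes. Hdc, which makes histamine, had a log2 difference of −0.12, while Ms4a2 and Fcer1a, of the high-affinity IgE receptor, were at or below the dim bound. Above 0 were also 8 of 10 blood endothelium, 4 of 6 lymphatic endothelium and all 4 platelet markers, against 49.6% of all named genes. Their median log2 differences were 0.05, 0.02 and 0.13. Of 8 dendritic cell markers 3 were above 0, with a median of −0.02.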
